A study of Mus musculus with 30 samples.

Results

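En1 and 3110001A13Rik, the gene now called Fam107b, were followed over 15 tissues of adult male C57BL/6 mice. They are 2 genes among 21026 probes tested, 1 probe each, on 30 arrays. Both were chosen by their large log2 difference between cerebellum and brain cortex on these arrays, so their levels in those tissues are given as a description and carry no test. The log2 difference of cerebellum from cortex was 3.93 for Fam107b and 3.86 for En1. The En1 difference is set against a dim cortex, where replicate 2 was not well above background. Just above them among named probes stood 4831410D14, a clone number, with 4.24, and just below stood 2310015B20Rik (now Mrln) with 3.69.

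With 2 arrays of each, the tissues were those of the nervous system (cerebellum, brain cortex and eyes), the digestive tract (stomach, small intestine, large intestine and liver), the trunk (heart, lung, kidney and bladder) and the body wall and limbs (skeletal muscle, bone, skin and fat). All mice were 28 weeks old by their labels, which name no treatment and no altered allele. A different age stands in the paper. On each array the tissue RNA was labelled with Cy3 and hybridised beside a Cy5-labelled common reference, a pool of RNA from cultured mouse cell lines mixed with RNA of ES cells. Values are log2(Cy3/Cy5), so that 0 is the level in the reference and each unit is a doubling. By the study's methods both arrays of a tissue were of separate mice, but the series description names a single replication for bone and fat, where the spread between arrays may be technical. Both cerebellum arrays and cortex replicate 1 shared a slide, while cortex replicate 2 was on another slide scanned on another day. Each of eyes, liver, heart, kidney, bladder, skin and stomach also had both of its arrays on a single slide. Replicates correlated with r of 0.947 or more over all probes tested in 12 tissues, but with 0.848 in bone, 0.798 in large intestine and 0.671 in fat. In bone, large intestine and fat the arrays were on different slides scanned on different days, so tissue and batch cannot be told apart. Cortex (0.988) and lung (0.969) were also split in this way.

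Engrailed 1, the product of En1, is a homeobox transcription factor. In the embryo it marks the border of midbrain and hindbrain, from which the cerebellum grows, and it also marks the ventral ectoderm of the limb and a lineage of dermal fibroblasts. Fam107b encodes a small protein, related to that of Fam107a, which has been described as inducible by heat shock and about which little is known in the cerebellum.

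Each gene was read by a single 60-base probe, whose first 30 bases are shown to identify what was measured.
En1 probe Z00075516-1: tacaaccccacagactacgagactgaaccg
Fam107b probe Z00035612-1: cgtgctttgagccactaataggggggaaaa
No other probe of the array held the same 60 bases as either of them. The 250 bases before the transcription start are shown next because the promoters of 2 genes so different in tissue pattern can be compared directly. They are RefSeq sequences of build GRCm38.p6, on the plus strand for both genes, and capitals mark every match to the motifs searched.
En1, chr1:120602237-120602486: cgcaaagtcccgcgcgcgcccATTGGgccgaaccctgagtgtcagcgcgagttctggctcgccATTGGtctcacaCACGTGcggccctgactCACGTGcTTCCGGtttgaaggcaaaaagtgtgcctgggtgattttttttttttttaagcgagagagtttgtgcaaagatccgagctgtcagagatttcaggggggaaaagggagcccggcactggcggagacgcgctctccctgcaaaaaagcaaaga
Fam107b, chr2:3713208-3713457: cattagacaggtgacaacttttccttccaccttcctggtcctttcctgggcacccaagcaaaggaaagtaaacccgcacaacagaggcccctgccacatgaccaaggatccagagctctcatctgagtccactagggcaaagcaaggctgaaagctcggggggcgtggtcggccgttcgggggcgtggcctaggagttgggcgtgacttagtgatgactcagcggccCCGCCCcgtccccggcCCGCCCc
The motifs, searched on both strands, were the TATA box TATAAA, the CCAAT box CCAAT, the GC box GGGCGG, the E-box CACGTG, the ETS core CCGGAA and the homeodomain core TAATTA. In the En1 window there were 2 CCAAT boxes, both read as ATTGG, which 33.8% of all 32851 windows also held. It had 2 E-boxes, a motif present in 6.02% of the windows, and 1 ETS core, present in 12% of them and read as TTCCGG. For Fam107b the matches were 2 GC boxes, read as CCGCCC, a motif present in 32.7% of the windows. The other motifs had no match in these letters, and none of the matches overlapped one of another motif. The En1 window held 19 CpG dinucleotides and the Fam107b window 13, against a median of 6 over all windows.

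En1 was highest on average in cerebellum, and muscle, skin and bone formed the next level, apart from the means of the remaining 11 tissues. Its log2 ratio in cerebellum was 0.55 on replicate 1 and 0.80 on replicate 2, with a mean of 0.68 ± 0.18 (SD, n = 2). In muscle the arrays gave 0.98 and -1.53, a mean of -0.28 ± 1.77 (SD, n = 2). Muscle replicate 1 thus exceeded both cerebellum arrays, and it was the only one of the 28 other arrays that was not below both of them. Skin gave -0.53 and -0.56, a mean of -0.55 ± 0.02 (SD, n = 2). In bone the arrays read -0.71 and -0.45, a mean of -0.58 ± 0.18 (SD, n = 2). These 4 tissues held 29.4%, 15.2%, 12.6% and 12.3% of the linear level summed over the 15 tissue means.

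In the remaining tissues the En1 signal was close to the background of the array. Fat gave -3.01 and -1.43, and its mean of -2.22 ± 1.12 (SD, n = 2) was the next after bone. The means then went down from large intestine at -2.26 through small intestine at -2.53, liver at -2.55, heart at -2.63, bladder at -2.85, stomach at -2.92, kidney at -2.97, eyes at -3.11 and cortex at -3.18 to lung at -3.25. The Cy3 signal of En1 was well above background on 21 of 30 arrays, and on neither array of liver or heart. One array each of cortex, kidney, bladder, small intestine and large intestine also fell short. By contrast the reference signal was well above background everywhere, from 1060 to 1720 scanner units, so the low ratios came with a dim tissue channel over a steady reference. In that tissue channel the mean signal was 1230 and 1310 in cerebellum, 931 and 148 in muscle, 278 and 318 in skin and 239 and 292 in bone, against a median of 81.6 over all arrays and a local background of 40 to 51. Since liver and heart give only a bound, cerebellum was at least 8.38-fold above liver and at least 8.84-fold above heart on the Cy3 scale.

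**Figure D1:**
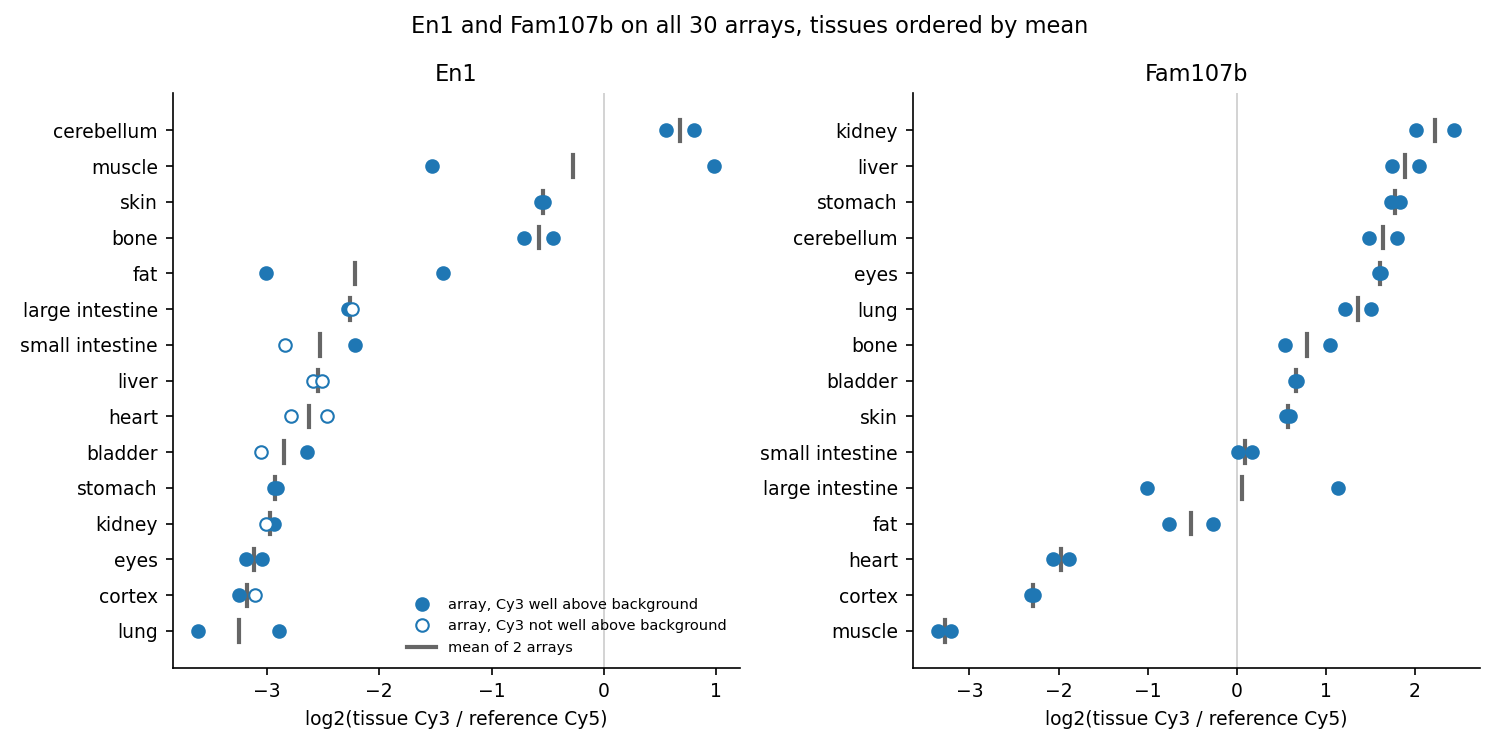
The log2 ratio of tissue over reference (x axis) is plotted for En1 (left) and Fam107b (right) on every array, with tissues ordered by the mean of their 2 arrays (bar) and open circles where Cy3 was not well above background. The En1 means of cerebellum, muscle, skin and bone lie above those of 11 tissues at -2.22 and less, whereas Fam107b spreads from 2.22 in kidney to -3.28 in muscle.

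Cortex was one of the dim tissues for En1. The cortex arrays read -3.25 and -3.11, a mean of -3.18 ± 0.10 (SD, n = 2), and only replicate 1 was well above background. No fold is given for the means, and against cortex replicate 1 alone, which shared the slide, the log2 difference was 3.93. The difference of the means depended on the processing, from 3.27 with the Cy3 level alone to 5.69 with the authors' value table. In bulk tissue, fewer cells of a type and less RNA per cell cannot be told apart. The first place of En1 in cerebellum held under median centring, the Cy3 level alone and the authors' table, with muscle, skin and bone in the next 3 places each time. The order of the dim tissues below them did change, and liver for example moved from rank 8 to rank 13 with the Cy3 level alone.

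Fam107b was a different case, for cerebellum was above 11 of the other 14 tissues on average but was not the highest. Kidney was highest, with 2.44 and 2.01 and a mean of 2.22 ± 0.30 (SD, n = 2). Liver followed with 1.74 and 2.05, then stomach with 1.83 and 1.73. Cerebellum had rank 4, at 1.49 and 1.80, a mean of 1.64 ± 0.22 (SD, n = 2). Its arrays overlapped those of liver, of stomach, of eyes, which gave 1.62 and 1.60, and of lung, and only 19 of the 28 other arrays were below both of them. Lung was at 1.51 and 1.22, bone at 1.05 and 0.54, bladder at 0.68 and 0.65 and skin at 0.60 and 0.55. The level in small intestine was close to that of the reference, with 0.02 and 0.17. Large intestine gave 1.14 and -1.01, a mean of 0.07 ± 1.52 (SD, n = 2), so its arrays lay on opposite sides of the reference. The place relative to the reference depended on the normalisation. With median centring large intestine read -0.29 and -2.29, and small intestine -0.97 and -1.55.

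Low levels of Fam107b were found in fat, at -0.76 and -0.27, in heart, at -2.06 and -1.88, in cortex, at -2.27 and -2.31, and in muscle, at -3.35 and -3.21. The cortex arrays were lower than those of every tissue except muscle, and no array of these 3 lowest tissues overlapped those of another. All 30 arrays were well above background, with Cy3 signals from 323 to 20900 scanner units, a 64.7-fold range. Fam107b therefore differed over a wide measured range, where En1 was mostly near its floor. The cerebellum mean was 15.3-fold above cortex and 2.36-fold above the mean of the 13 other tissues, and within the shared slide the log2 difference from cortex was 3.92. Other processing put the cortex difference between 3.40 and 3.99, and kidney kept the first rank under all of those examined for rank while cerebellum had rank 3 or 4.

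An information measure of tissue specificity, which is 0 for equal levels in all 15 tissues and 3.91 bits for a gene present in only 1, was 0.661 bits for En1 and 0.413 bits for Fam107b. The median over all probes tested was 0.159 bits, and 82.3% of probes lay below En1 and 72.6% below Fam107b. Both values include the tissues used to choose the genes. Across the 15 tissue means the genes had a Pearson r of -0.131 with each other (Spearman's rho -0.236), and over the 13 tissues that were not used to choose them r was -0.515 (rho -0.632), as a description over points that share 1 reference. In most of these tissues En1 was near its floor, where its order was not resolved, which limits rho most. The sharpest contrast was muscle, second for En1 and last for Fam107b.

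To ask where each gene differed outside the choosing contrast, the 13 tissues other than cerebellum and cortex were compared with each other by limma. Among all probes, 87.9% varied over these tissues at an adjusted p under 0.05, so passing this test is common. En1 passed it (F = 7.41, adjusted p = 0.000162) and so did Fam107b (F = 30.6, adjusted p = 9.75e-09). Each tissue was then set against the average of the other 12, and a gene was called at an adjusted p under 0.05 and a log2 difference of at least 1.

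En1 was called in 4 of 13 tissues, and 26.3% of all probes were called in 4 or more. It was higher in muscle by 2.09 (SE 0.40, adjusted p = 0.000226), in skin by 1.80 (SE 0.40, adjusted p = 0.00158) and in bone by 1.77 (SE 0.40, adjusted p = 0.00183). For comparison, 10.5% of probes were called higher in muscle, 9.21% in skin and 7.97% in bone. It was lower in lung, with a difference of -1.13 (SE 0.40, adjusted p = 0.0286), as were 7.42% of probes. With the processed signals or the authors' table the differences were larger, at 3.51 in muscle, 3.11 in skin, 3.04 in bone and -1.79 in lung, and eyes and heart (-1.28 each) were called too, which made 6 tissues. Eyes, at -0.98 (adjusted p = 0.0467), were just short of a call, and were also called with slide as a random block (-1.36, adjusted p = 0.0203), where skin reached 2.60. The muscle call rested on replicate 1, without which the difference was 0.84 (adjusted p = 0.076), against 3.35 without replicate 2. The lung difference shrank to -0.63 with median centring (adjusted p = 0.218) and to -0.68 with the Cy3 level alone (adjusted p = 0.0890), and its call was also lost with scan day as a random block (-1.21, adjusted p = 0.0592), when either lung array was left out (-1.49 and -0.77) and without both muscle arrays (-0.96). With array weights the bone difference stayed at 1.77 but was not called (adjusted p = 0.166). Within slides, both skin arrays were above muscle replicate 2 and above small intestine replicate 1 at -2.84, and bone was above large intestine on one slide (-0.71 against -2.24) and above fat on another (-0.45 against -1.43).

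Fam107b was called in 8 of 13 tissues, against 7.99% of probes called in 8 or more. Higher calls were made in kidney, by 1.97 (SE 0.30, adjusted p = 3.24e-05), liver, by 1.61, stomach, by 1.49, eyes, by 1.30, and lung, by 1.04 (adjusted p = 0.00891). The shares of all probes called higher in these tissues were 9.64% in kidney, 10.9% in liver, 8.66% in stomach, 14.6% in eyes and 11.6% in lung. Lower calls were made in muscle, with a difference of -3.99 (SE 0.30, adjusted p = 4.07e-09), heart, with -2.58 (adjusted p = 1.47e-06), and fat, with -1.0 (adjusted p = 0.0162), where 16%, 9.15% and 5.12% of probes were lower. The muscle level was thus 15.9-fold below the mean of the other 12 tissues. With slide as a random block the stomach difference shrank to 0.79 (adjusted p = 0.0895) and the fat difference to -0.51 (adjusted p = 0.363), so neither was called. The other calls held in that limma fit, but at larger adjusted p. These were 0.00395 in kidney, 0.0105 in liver, 0.0202 in eyes, 0.0222 in lung, 0.00101 in heart and 2.11e-08 in muscle. The fat difference lay at the threshold, and its call was also lost with no background correction (-0.99), the processed signals (-0.93), the authors' table (-0.93), the Cy3 level alone (-0.95) and array weights (-1.0, adjusted p = 0.245), without fat replicate 1 (-0.76, adjusted p = 0.189) and without any of several arrays of other tissues (-0.91 to -1.0). The lung call was lost without lung replicate 2 (0.89, adjusted p = 0.131), without large intestine replicate 2 (0.95) and without both muscle arrays (0.71), and the eyes call without both muscle arrays (0.97). The difference of large intestine was -0.37 with both arrays (adjusted p = 0.337), but 0.70 without replicate 2 and -1.44 without replicate 1.

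**Figure D2:**
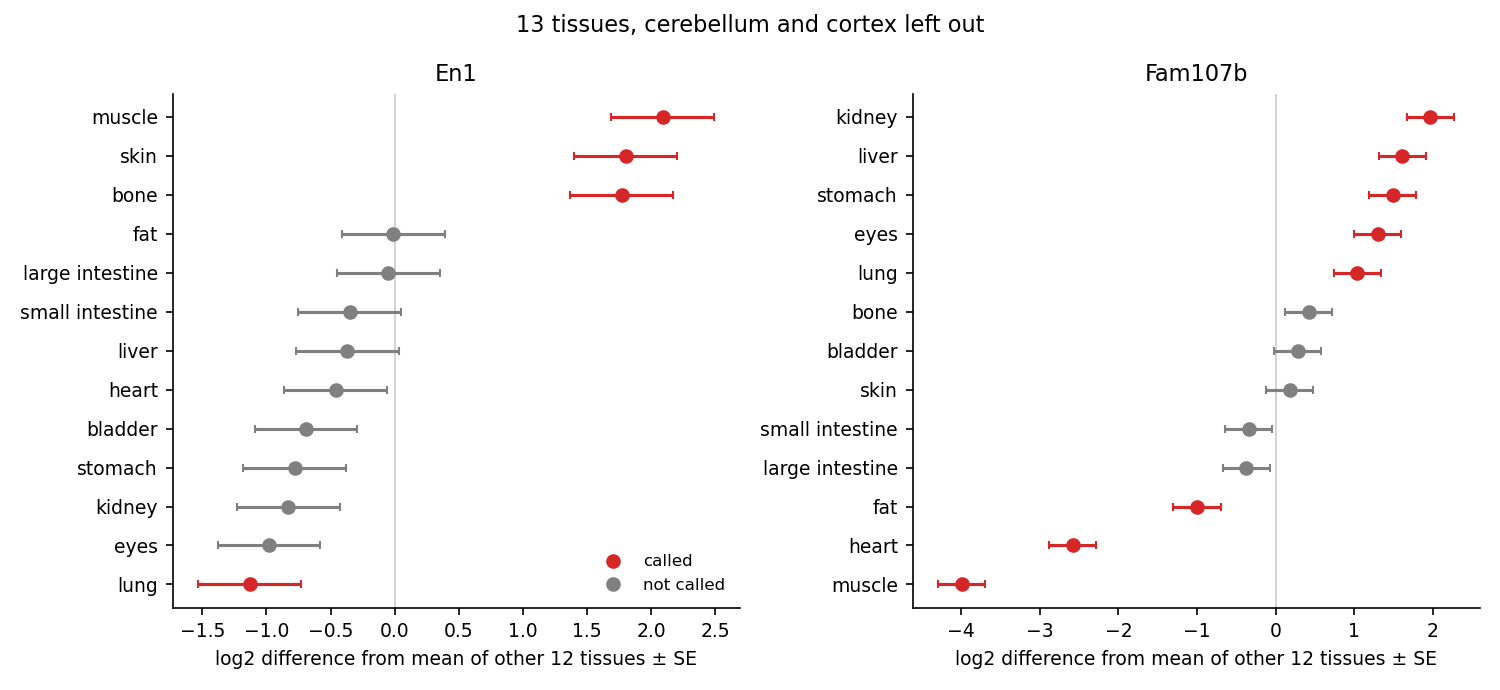
The log2 difference of each of 13 tissues from the mean of the other 12 is plotted with its standard error (x axis), red where called and grey where not, for En1 (left) and Fam107b (right). En1 stands out upwards in muscle (2.09), skin (1.80) and bone (1.77), and Fam107b stands out downwards in muscle (-3.99) and heart (-2.58).

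Most neighbours in the order of levels could not be told apart. For En1, only bone and the next tissue, fat, differed among the 12 neighbouring pairs of the 13 tissues (1.64, SE 0.54, limma adjusted p = 0.0303), which is the gap seen between the brighter tissues and the rest. For Fam107b, fat and heart differed by 1.45 (SE 0.41, adjusted p = 0.0100) and heart and muscle by 1.31 (SE 0.41, adjusted p = 0.0238). These differences were not stable, as 0 En1 pairs differed with median centring, with array weights and without muscle replicate 1, small intestine replicate 1, fat replicate 1 or bone replicate 2, and 0 Fam107b pairs with scan day as a random block or without heart replicate 1. Over all 78 pairs of these tissues, En1 differed in 30 and Fam107b in 50, while the share of all probes that differed in a pair ranged from 17.5% to 53.4% with a median of 38%.

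The gap between the muscle arrays for En1 was unusual. It was 2.51 on the log2 scale, and only 0.0619% of all probes tested, 13 in number with En1 itself, differed at least as much between these arrays, whose r over all probes was 0.984. Of these 13 probes, 7 were higher on replicate 1. The 3 with a symbol, named after their values were seen, were En1, Fmod and Tnni1. Fmod, which encodes a collagen-binding proteoglycan of tendon and cartilage, read 2.46 on replicate 1 against -1.0 on replicate 2. Tnni1, the troponin I of slow muscle fibres, went the opposite way, with 1.54 and 4.86. Fam107b read -3.35 and -3.21 there, an SD of 0.10 against a median SD of 0.12 over the tissues. Muscle replicate 1 was the only array on its slide, and muscle replicate 2 was on another slide with skin. For the muscle gap of En1, animal and slide thus cannot be told apart.

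Skeletal muscle was also visible in the RNA of skin and bone. Of 7 skeletal muscle markers with a named probe (Actn3, Des, Mstn, Mybph, Myl1, Myog and Tnni1, a list added after the tissue order was seen), all were above background on every array of muscle, skin, bone and eyes. Their median log2 ratio was 3.54 and 4.86 in muscle, 4.52 and 3.33 in bone, 2.33 and 4.33 in skin and 1.52 and 1.36 in eyes, but -0.28 and -0.25 in cerebellum. Their summed linear level was 237 and 374 in muscle, 152 and 114 in bone, 45.7 and 196 in skin and 31.0 and 28.8 in eyes, and it ranged from 4.07 to 34.4 elsewhere. The skin arrays thus differed widely in muscle markers while their En1 levels differed by 0.03, and eyes carried the markers with En1 at -3.04 and -3.19. Connective tissue markers, 11 in number, had summed levels of 19.7 and 16.4 in muscle, 26.5 and 26.9 in skin and 12.2 and 34.5 in bone, but 22.5 to 23.8 in bladder and 19.9 to 22.7 in lung, where En1 was low. The 13 leukocyte markers summed to 11.8 and 11.5 in muscle, 13.9 and 16.0 in skin and 211 and 30.3 in bone. The part of these other cell types in the En1 levels was not tested.

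**Figure D3:**
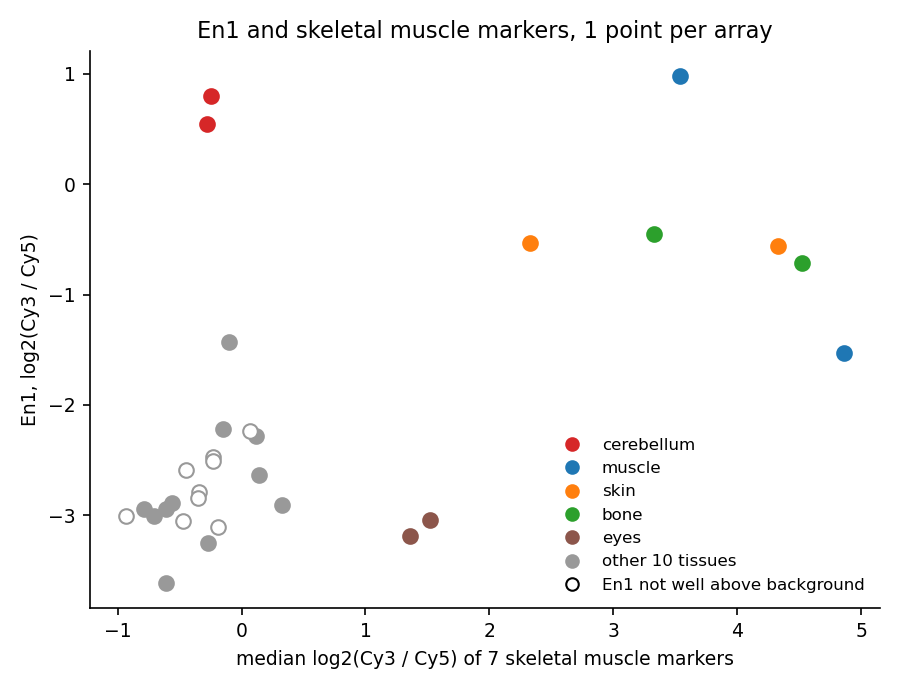
The log2 ratio of En1 (y axis) is plotted against the median log2 ratio of 7 skeletal muscle markers (x axis), 1 point per array, with open circles where En1 was not well above background. Muscle, skin and bone lie to the right with En1 between -1.53 and 0.98, eyes lie at 1.36 and 1.52 with low En1, and cerebellum combines high En1 with marker medians below 0.

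Genes with a pattern like that of En1 were sought among 5047 named probes by the Pearson r of tissue means over the 15 tissues. Pax3 came first with r of 0.952, and 0.941 over the 13 tissues without cerebellum and cortex. It encodes a paired-type homeobox factor of the dorsal neural tube, neural crest and muscle progenitors. Pax3 read -0.79 and -0.49 in cerebellum, -0.33 and -0.73 in muscle, -1.05 and -1.32 in skin, -1.91 and -0.64 in bone and -2.78 and -2.55 in cortex. Bone replicate 2, at -0.64, and cortex replicate 2 were not well above background for Pax3. Its muscle arrays differed by far less than those of En1, and it was above background on 12 of 30 arrays, so both genes were dim in most of the tissues compared. Next came Homer3, encoding a postsynaptic scaffold protein abundant in Purkinje cells (r = 0.823), 2810432D09Rik (now Rpp25l, r = 0.793), Rnmt, the mRNA cap methyltransferase (r = 0.784), and 2310005C01Rik (now Nos1, r = 0.714). These r include the tissues by which En1 was chosen, and over the 13 others the order after Pax3 was Rpp25l (0.881), Rnmt (0.787), Nos1 (0.783) and Homer3 (0.720). Homer3 was highest in cerebellum at 0.90 and 1.13, with 0.58 and -0.04 in skin. Over the 30 single arrays r was 0.890 for Pax3 and 0.739 for Homer3. All these points share the reference channel and, in part, the slides.

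**Figure D4:**
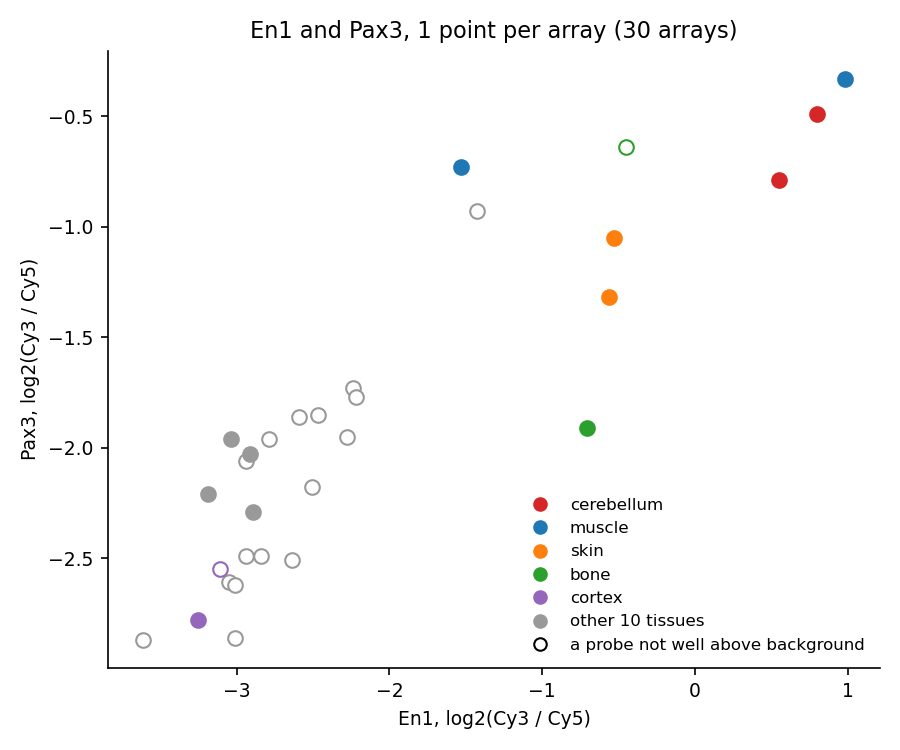
The log2 ratio of Pax3 (y axis) is plotted against that of En1 (x axis), 1 point per array, with open circles where a probe was not well above background. Cerebellum, muscle, skin and bone lie to the right, while cortex and the other 10 tissues gather at the lower left apart from 1 fat array, at -1.43 for En1 and -0.93 for Pax3. Pax3 was not well above background on that fat array or on bone replicate 2.

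No named probe matched Fam107b as closely. The best were Terf1, of the telomere-binding complex (r = 0.764), Sec23b, of the vesicle coat that leaves the endoplasmic reticulum (r = 0.745), Gstcd (r = 0.736), Usp52 (now Pan2), of an mRNA deadenylase (r = 0.724), and Ccnl1, a cyclin linked to splicing (r = 0.712). Over the 13 tissues without cerebellum and cortex their r was 0.802, 0.795, 0.704, 0.704 and 0.735. Among all 21023 probes compared, named or not, the highest r was 0.815. Terf1 spanned from -2.95 in muscle to -1.12 in eyes, a narrower range than that of Fam107b. Muscle was lowest for 3 of the 5 genes, as for Fam107b, with heart lowest for Gstcd and cortex for Pan2.

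Lists of other homeobox genes, patterning signals, heat shock proteins and genes beside En1 were then compared between cerebellum and the other tissues. Among all probes, 5.46% were called between cerebellum and cortex (2.27% higher and 3.2% lower in cerebellum), and 30.6% between cerebellum and the 13 other tissues (14.4% higher and 16.1% lower). The median log2 difference over all probes was -0.03 against cortex and -0.11 against the 13 tissues.

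Of 12 other homeobox genes, all tested, 3 were higher in cerebellum than in cortex, with a median difference of 0.10 over the list. Lhx9, a LIM-homeobox gene of dorsal brain neurons, read 2.00 and 2.18 in cerebellum against 0.58 and -0.61 in cortex, higher by 2.10 (SE 0.43, adjusted p = 0.00308). It was also the only one of the 12 whose highest level was in cerebellum. For Pax3, described above, the difference was 2.02 (SE 0.46, adjusted p = 0.00698), with cortex above background on 1 of 2 arrays. Lmx1a, which acts in the roof plate and rhombic lip, was higher by 1.44 (SE 0.18, adjusted p = 2.35e-05), although its highest level, 2.95, was in eyes. Gbx2, a partner of En1 in setting the midbrain and hindbrain border, gave -2.76 and -3.16 in cerebellum against -3.05 and -3.12 in cortex and was not called (adjusted p = 0.999). The number of homeobox genes called against cortex fell to 2 with the processed signals or the authors' table and to 0 where Cy3 had to be above background on all arrays. Against the 13 tissues, 4 homeobox genes were higher, namely Lmx1a (1.51), Lhx9 (3.30), Pax3 (1.25) and Pou3f3 (2.49). Lhx9 was well above background on 8 arrays of the series, Pax3 on 12 and Pou3f3 on 14. The sizes for Lhx9, Pax3 and Pou3f3 are thus set against mostly dim arrays.

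The 8 genes of patterning signals, which comprise Wnt and hedgehog ligands, their receptors and downstream factors, the ephrin receptor gene Epha4 and the transcription factor gene Hes6, split in direction. Fzd7, a Wnt receptor, read -0.02 on both cerebellum arrays against -2.22 and -1.84 in cortex, a difference of 2.01 (SE 0.23, adjusted p = 5.50e-06). The ligand gene Wnt10a was lower in cerebellum, at -3.25 and -3.13 against -0.03 and 0.20, a difference of -3.28 (SE 0.28, adjusted p = 1.60e-07). Epha4 was also lower, with a difference of -2.93 (SE 0.35, adjusted p = 1.01e-05), but above the 13 tissues by 1.59. Ihh and Fzd5 were called lower than the 13 tissues (adjusted p = 0.000293 and 4.80e-07), but neither was well above background on a cerebellum array, so no size is given. Of 4 genes for heat shock proteins and their activators, limma called 0 against cortex, with 0 at an unadjusted p under 0.05, and 0 against the 13 tissues, where 1 had an unadjusted p under 0.05.

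Of the genes listed beside En1 on chromosome 1, 1 was called against cortex. Of 20 neighbours, 10 on each side in the order of the study's probe list, 19 passed the filter on dim probes, and 1700012E03Rik did not. Of the 18 matched to RefSeq by symbol, 18 were on the chromosome of En1. Only Dbi, which encodes the acyl-CoA-binding protein, was called against cortex, with 2.00 and 1.98 in cerebellum against 1.02 and 0.96 in cortex (1.00, SE 0.28, adjusted p = 0.0313), so the share of 5.26% was near that of all probes. The Dbi difference lay at the threshold, and 0 neighbours were called with no background correction, with median centring, with slide or scan day as a random block and without cortex replicate 1 or either cerebellum array, against 2 with the processed signals, the Cy3 level alone, slide as a fixed block and without cortex replicate 2. The median difference of the neighbours was -0.05. Against the 13 tissues, 3 neighbours were higher, namely Dpp10, a potassium channel subunit gene (4.45), Lypd1 (3.68) and C1ql2 (2.05), and none of these 3 was called against cortex. Lower calls were made for Tmem37 (-3.38), Slc35f5 (-1.82), Sctr, the secretin receptor gene (-1.79), Steap3 (-1.45) and Ccdc93 (-1.03). The 8 calls were 42.1% of the neighbours tested.

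**Figure D5:**
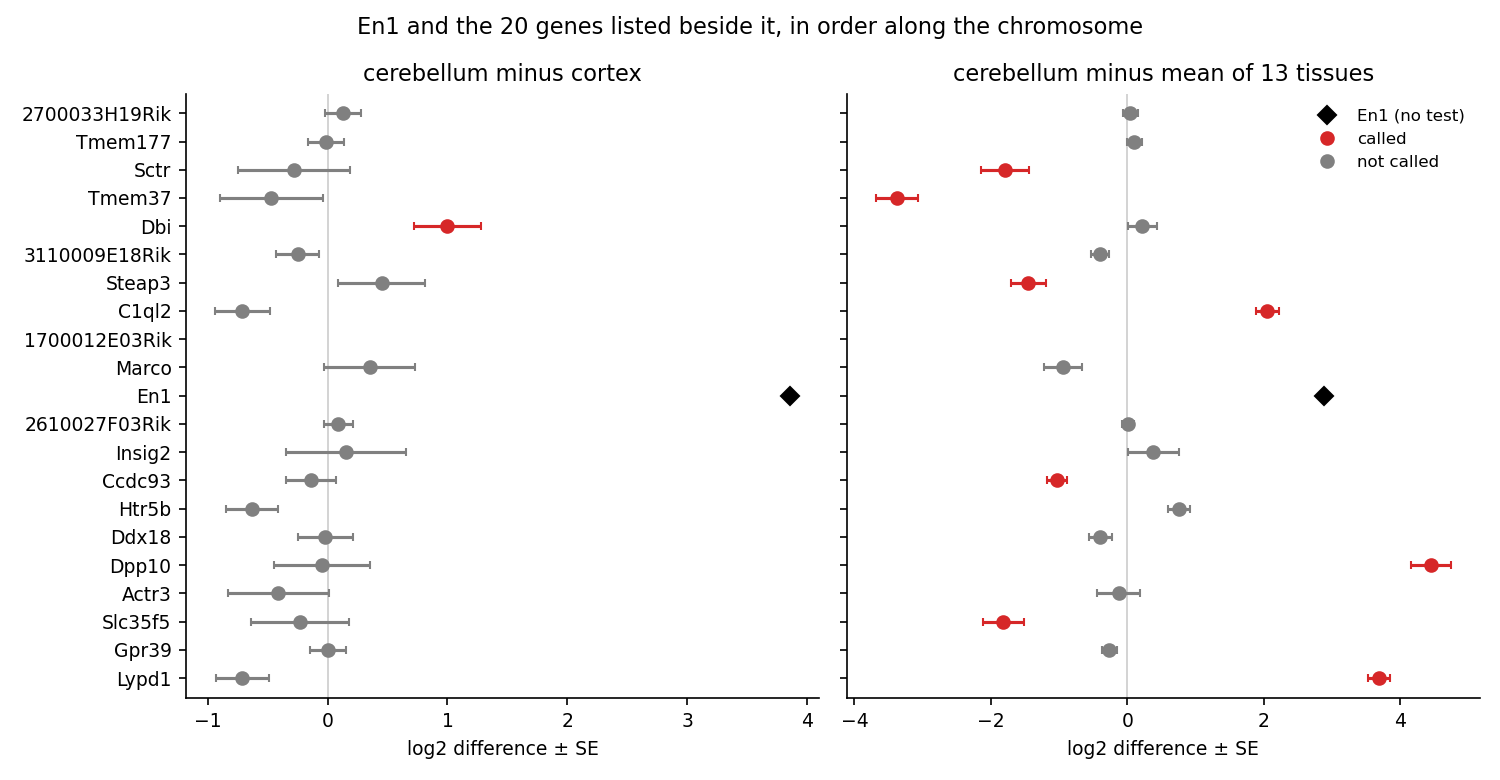
The log2 difference of cerebellum from cortex (left) and from the mean of 13 tissues (right) is plotted with its standard error (x axes) for En1 (black diamond, described without a test) and the 20 genes listed beside it, in order along the chromosome (y axis), red where called. En1 stands at 3.86 from cortex, where the neighbours lie between -0.71 and 1.00, and 1700012E03Rik was not tested.

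Marker genes were set against the labels of both brain tissues. Of 11 genes of neurons in general, 7 were higher in cerebellum than in the 13 tissues and 0 were called by limma against cortex, where 1 had an unadjusted p under 0.05. With slide as a fixed block, 1 of the 11 was called against cortex. The following names are of the 7 called higher than in the 13 tissues. They were Kif1a, Mtap2 (now Map2), Nmnat2, Rims1, Ptprn, Accn1 (now Asic2) and Accn2 (now Asic1). All 11 were above background on all 4 arrays. Of 8 genes chosen as markers of cerebellar neurons, 7 were higher than in the 13 tissues. They were Rgs8 by 4.59, Dner by 4.97, Bai3 (now Adgrb3) by 4.88, Astn1 by 2.52, Agtpbp1 by 1.94, Cntn2 by 1.67 and Syt2. No size is given for Syt2, which was well above background on no array of the 13 tissues. Syt2 alone was called against cortex (1.09, SE 0.11, adjusted p = 2.43e-06). The other 7 were thus not called between cerebellum and cortex. The count of these markers called was 0 with no background correction, the processed signals, median centring, the authors' table, Cy3 above background on all arrays, slide as a fixed block and without cortex replicate 2, and 3 with the Cy3 level alone. Among 7 cortical neuron markers, Kcnq5 (-2.86), Ngef (-2.55) and Rgs4 (-1.83) were lower in cerebellum than in cortex, while Scg2, Pou3f3, Rgs4 and Ngef were higher than in the 13 tissues. The number of cortical markers called against cortex was 1 with the processed signals or the authors' table and 2 with Cy3 above background on all arrays. The leukocyte and connective tissue markers gave 1 call against cortex, the leukocyte gene Stk17b (2.31), among 13 and 11 genes. Against the 13 tissues Stk17b was higher, the leukocyte genes Ptprc, Rgs1, Zap70, Lax1 and Faim3 (now Fcmr) were lower, and so were 9 of the 11 connective tissue genes, namely Twist2, Col3a1, Col5a2, Col6a3, Dpt, Prelp, Fn1, Ddr2 and Aebp1. Lax1 and Dpt were not well above background on a cerebellum array. Pou3f3 stands both among the cortical neuron markers and among the homeobox genes.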

How the data were processed

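Gene expression was profiled on 2-colour Agilent oligonucleotide arrays in 15 tissues, 2 arrays each, with the tissue in Cy3 and a common reference in Cy5 on every array and no dye swap. Both genes, the gene lists and the tests were chosen with earlier results of these data known.

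The authors extracted the spots with Agilent Feature Extraction 9.5.1.1, as the submitters' processing notes and the file headers state. The deposited spot files give mean and background signals as intensity in scanner units, the software's processed signals, and flags of other kinds. The value table deposited by the authors holds 25030 probes on a log10 scale, whose reference adjustment is read from the values and not from a stated method. Their probe lists served for names (5622 probes) and for the order of genes along chromosome 1.

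Background was corrected by normexp (offset 50), arrays were normalised by loess, control spots and 475 outlier spots were left out, and spots of a probe were averaged. Signals were positive on every array, with 53.9% to 76.9% of noncontrol spots well above background in Cy3 and 0 saturated, and the number of arrays limits the precision. Probes of the table were tested if 1 or more tissues had both arrays well above background in Cy3. These were 21026 probes, and 174 of them lacked a value on 1 or more arrays. A ratio can be formed for a dim probe, but it is compressed by the offset.

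The linear models of limma 3.58.1 (R 4.3.3) had 1 coefficient per tissue over all 30 arrays and Benjamini-Hochberg adjustment over all probes in each two-sided contrast, and the script was tested on simulated data. Named were both genes in every tissue, the 5 named probes most like each by r, and the called members of the lists, apart from 1 that is not reported here. Alternatives were other background corrections and normalisations, the Cy3 level alone, the authors' table, other filters, slide, scan day and replicate number as blocks, array weights, each array left out, and, added after the data were seen, both muscle arrays left out. A bound ("at least") uses the Cy3 channel after loess and scaling between arrays, and takes for each dim array the higher of its own signal and the lowest signal that was well above background, which is open to dye bias.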

Additional observations from a re-analysis of the deposited data

How the results depend on the processing

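Of the counts reported, most moved by less than 1.5 times. Requiring Cy3 above background on all arrays, with fewer probes tested, gave 11364 probes varying over 13 tissues in place of 18483, 518 in place of 1149 between cerebellum and cortex, 3656 in place of 6425 against the 13 tissues, and 5 and 7 list members called in place of 12 and 33. List members called against cortex were 7 with the processed signals and 6 with the authors' table. These counts of list members leave out the leukocyte and connective tissue markers and do not repeat genes shared by lists. For En1, 0 neighbouring pairs differed under median centring and array weights in place of 1, and for Fam107b 1 under median centring, 1 with slide and 0 with scan day as a random block in place of 2. Without both muscle arrays, En1 was called in 2 tissues and Fam107b in 5, with 1 Fam107b pair; the causes were not tested.

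Leaving out 1 array at a time gave 3 to 5 tissues called for En1 and 6 to 8 for Fam107b, 0 to 2 and 0 to 4 neighbouring pairs, 17925 to 18993 probes varying over tissues, 859 to 1312 probes between cerebellum and cortex and 6105 to 6493 against the 13 tissues, and 10 to 12 and 32 to 35 list members.

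Differences from the other 12 tissues that changed sign were small in both fits except where 1 array decided them. For Fam107b, skin went from 0.18 to -0.29 (median centring), -0.02 (slide), -0.08 (scan day) and -0.15 (without both muscle arrays), where bladder went from 0.28 to -0.05. For En1, fat (-0.01) became 0.02 with slide and 0.16 without both muscle arrays, small intestine (-0.35) became 0.05 with slide, and large intestine (-0.05) became 0.09 with scan day and 0.12 without both muscle arrays. Leaving out 1 array moved En1 in fat between -0.81 and 0.78 and in large intestine between -0.16 and 0.05, and Fam107b in large intestine between -1.44 and 0.70.

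Same-numbered replicates deviated together weakly in some pairs of tissues and not in others. Over 105 pairs r of the deviations lay between -0.248 and 0.343 (median 0.0479), and 32 pairs were over 0.1. Whether same-numbered arrays came from the same mouse cannot be read from these r, which also hold shared slides. With the replicate block 1162 probes differed between cerebellum and cortex and 6434 against the 13 tissues, and 4 and 8 tissues were called for En1 and Fam107b, as without it. The arrays of a slide correlated at 0.692 and those of a scan day at 0.586 in their residuals. The main fit had no slide term, so its p-values can be too small where both arrays of a tissue shared a slide. En1 in the 11 dim tissues is limited by signal over background, so the order among them is not resolved.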
